A study of Homo sapiens with 16 samples.

Results

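The 9 genes described here, ABCC5, TBC1D2, AAK1, NBR1, SGCB, NOL3, CD22, TMEM8B and LOC728743, had more engaged RNA polymerase in their gene bodies after 2 h or 6 h of SMARCA5 degradation and still had more at 24 h. They were picked by symbol, on those gene-body values, from 10304 transcripts tested by PRO-seq, which maps transcribing polymerases by labelling nascent RNA in isolated nuclei. The gene-body changes of these genes are therefore given as a description, with no test. Counts near the promoter were not used to pick them and were tested. In gene bodies 9 of 9 genes passed the filter on low counts, and near promoters 8 of 9 did, NOL3 being too thinly covered there (4.14 reads per library on average).

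All cells were Kasumi-1, a human acute myeloid leukaemia line with the RUNX1-RUNX1T1 fusion, in which both SMARCA5 alleles were joined to FKBP12F36V, a tag that dTAG-47 brings to the ubiquitin machinery. Whether the tagged line is 1 clone is not given in the sources used here. Tagged cells were untreated (0 h, n = 5 libraries) or had received 500 nM dTAG-47 for 2 h (n = 3), 6 h (n = 4) or 24 h (n = 2), and the tag is thus shared by treated and untreated cells. The series has 16 samples, and its 2 parental samples were not analysed here. Libraries came in 3 runs, told apart by codes in the table headers (what they stand for is not stated): run 1 (2 untreated, 1 at 2 h), run 2 (2 at each of the 4 times) and run 3 (1 untreated, 2 at 6 h). The 24 h time was measured in run 2 alone. Totals were 11182894 to 34209362 reads per library in gene bodies and 1667950 to 7171601 near promoters. Promoter-proximal reads made up 9.55 to 20.6% of a library, with the lowest and the highest values both in untreated libraries. The series design calls the samples biological replicates and does not say whether each came from its own culture, so p-values measure the spread between these libraries. In bulk samples, more cells transcribing a gene and more transcription per cell cannot be told apart.

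The tag acts on the protein, so SMARCA5 transcription does not check the loss. The SMARCA5 gene body held 113 ± 20.6 CPM at 0 h, 94.2 at 2 h, 96.4 at 6 h and 96.8 at 24 h (means; CPM are reads relative to the library total, adjusted by TMM). Of 10 myeloid markers 7 were among the listed transcripts, including KIT at 3799 CPM and MPO at 979.9 CPM in untreated cells, with a summed level of 4082 to 5635 CPM in treated and 4752 to 5986 CPM in untreated libraries. None of the 10 B-cell, 5 T-cell, 3 erythroid or 4 muscle markers was among them. Of 4 epithelial markers EPCAM was listed, at 17.0 to 20.7 CPM in treated and 26.6 to 33.6 CPM in untreated libraries, and its part in the results was not tested. B-cell genes such as PAX5 and CD79A were thus not among the transcripts analysed here, although CD22 was. The myeloid markers RUNX1T1, CD38 and LYZ were not listed either, so absence from the list does not show that a gene is silent. The summed myeloid level covers genes that moved in different directions, such as KIT (log2 change -0.56 at 2 h) and CD33 (0.85 at 24 h).

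SMARCA5 is the motor of ISWI chromatin remodellers, which slide nucleosomes into regular arrays and help factors such as CTCF hold their sites. After initiation, RNA polymerase II usually pauses just downstream of the promoter and is released from there into the gene body. A gain in the gene body with the same gain near the promoter and a gain in the gene body alone are therefore different patterns of polymerase distribution. The members belong to different processes. ABCC5 exports organic anions and cyclic nucleotides, CD22 is a sialic acid-binding inhibitory receptor best known from B cells, and AAK1, TBC1D2 and NBR1 act in endocytosis, Rab GTPase regulation and autophagy. SGCB is a sarcoglycan of the muscle cell membrane, NOL3 an inhibitor of apoptosis, and TMEM8B a membrane protein.

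Upstream sequences of 5 members are printed because their promoter-proximal reads moved in different ways: ABCC5, SGCB and CD22 had promoter-proximal calls, and TBC1D2 and NBR1 had none. Each line gives the 250 bases before the RefSeq start, 5′ to 3′ on the gene's strand, on GRCh38.p14. Capitals mark matches to any of 7 short motifs on either strand, searched by their letters. The TATA box was searched as TATAAA and the pentamer named after its own letters as CCAAT. For the GC box, bound by SP1 and related factors, the letters were GGGCGG. The core site of ETS factors was taken as CCGGAA, and that of RUNX factors as TGTGGT. The E-box of MYC and USF factors was searched as CACGTG, and part of the site of CTCF as GGNGGCAG.
ABCC5, chr3:184017885-184018134, minus strand: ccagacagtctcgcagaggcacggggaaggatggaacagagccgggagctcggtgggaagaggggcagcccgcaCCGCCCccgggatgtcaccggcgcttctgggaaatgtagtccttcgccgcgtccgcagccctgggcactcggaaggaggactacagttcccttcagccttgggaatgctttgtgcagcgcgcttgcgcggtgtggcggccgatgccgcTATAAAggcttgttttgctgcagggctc
SGCB, chr4:52038300-52038549, minus strand: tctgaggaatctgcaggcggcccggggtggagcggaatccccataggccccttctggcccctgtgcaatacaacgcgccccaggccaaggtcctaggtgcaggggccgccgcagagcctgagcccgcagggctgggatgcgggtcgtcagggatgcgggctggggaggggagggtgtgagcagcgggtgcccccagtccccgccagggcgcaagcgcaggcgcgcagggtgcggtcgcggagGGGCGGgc
CD22, chr19:35328937-35329186, plus strand: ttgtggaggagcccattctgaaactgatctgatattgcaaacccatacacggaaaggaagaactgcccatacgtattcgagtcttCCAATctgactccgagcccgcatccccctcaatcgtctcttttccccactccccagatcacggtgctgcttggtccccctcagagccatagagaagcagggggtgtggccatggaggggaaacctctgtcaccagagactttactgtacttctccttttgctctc
TBC1D2, chr9:98255650-98255899, minus strand: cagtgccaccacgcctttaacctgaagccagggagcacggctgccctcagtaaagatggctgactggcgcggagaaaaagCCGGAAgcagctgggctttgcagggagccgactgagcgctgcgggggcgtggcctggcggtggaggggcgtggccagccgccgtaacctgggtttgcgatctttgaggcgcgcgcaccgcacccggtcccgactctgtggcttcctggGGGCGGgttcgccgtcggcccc
NBR1, chr17:43170159-43170408, plus strand: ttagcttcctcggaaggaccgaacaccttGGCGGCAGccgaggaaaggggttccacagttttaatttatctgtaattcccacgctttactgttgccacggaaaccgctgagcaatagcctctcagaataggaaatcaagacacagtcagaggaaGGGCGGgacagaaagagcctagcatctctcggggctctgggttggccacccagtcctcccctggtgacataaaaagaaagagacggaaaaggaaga

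The ABCC5 window held a TATA box match 28 to 23 bases before the start, which 10.7% of the 35116 promoters in the table held anywhere in the window. CD22 had 1 CCAAT match (32% of promoters) and no GC box, while the other 8 members had at least 1 GC box (42.6% of promoters). TBC1D2 also had an ETS core (14.5%), as did AAK1 and LOC728743, and NBR1 and NOL3 had a CTCF core match (13.4%). No member window held the RUNX core (11%) or the E-box (6.34%). In NOL3 the 2 GC box matches share a base, and in TMEM8B 2 of 5 GC box matches lie end to end. Where RefSeq gave several starts (2 for TBC1D2, AAK1, NBR1 and NOL3, 5 for LOC728743), the start whose span was nearest the listed length was used. For TMEM8B the only start in the table gave a span that differed by 10672 bases from the listed one, so its window may belong to another start. GC content of the windows was 51.6% (NBR1) to 73.6% (SGCB and NOL3), against a median of 58.0% over all promoters. A match describes letters in these windows, not binding.

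**Figure D1:**
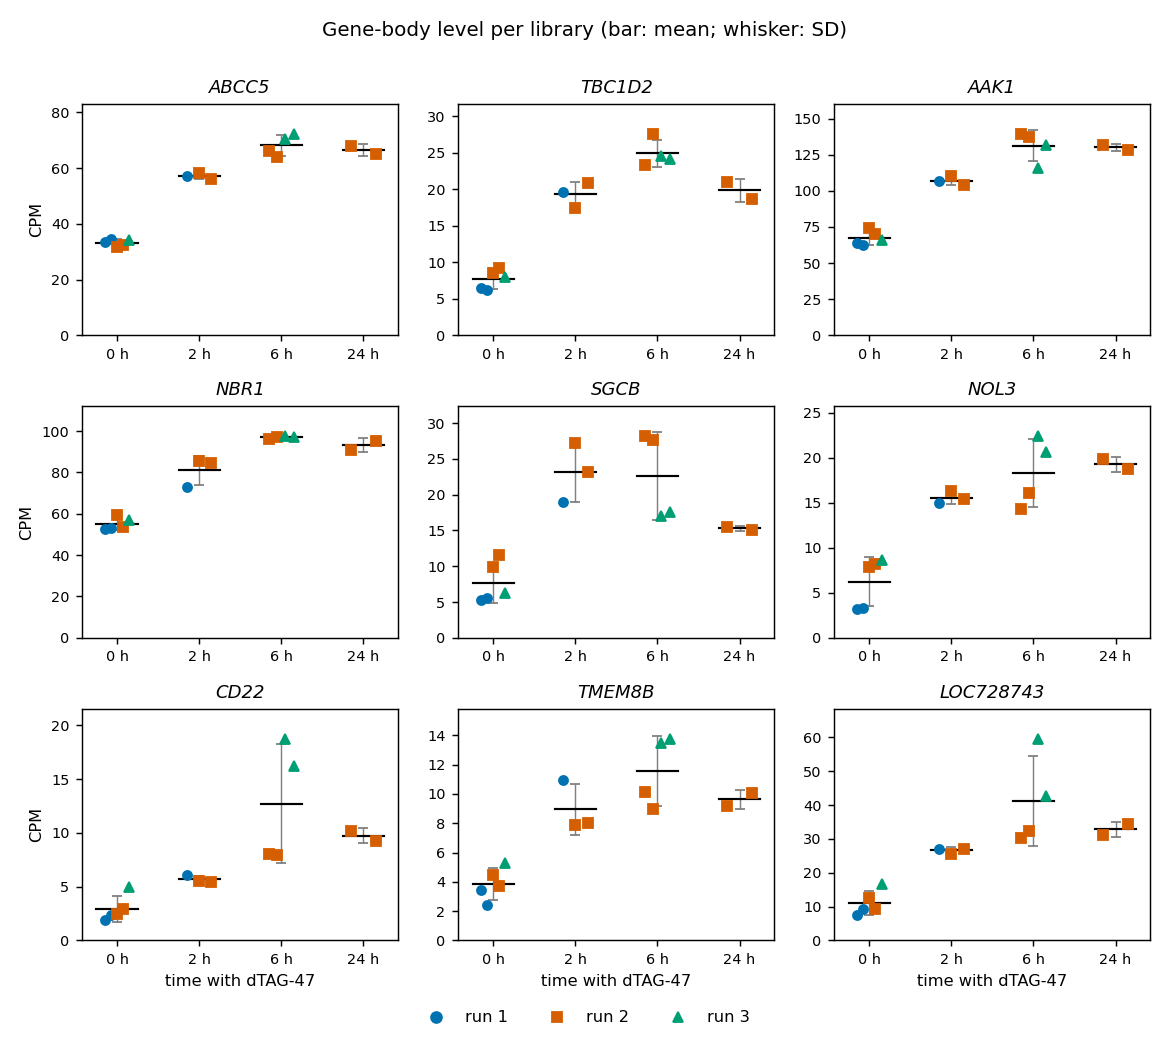
Gene-body level of each member in every library (CPM, linear axis from 0) by time with dTAG-47, with colour and shape for the run, a bar for the mean and a whisker for the SD. In each panel the libraries at 2, 6 and 24 h lie above all 5 untreated ones, and SGCB has its lowest treated mean at 24 h.

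In gene bodies all treated libraries lay above all 5 untreated libraries for 9 of 9 members at 2, 6 and 24 h. The same held for 11.6, 10.7 and 17.5% of the 10304 transcripts at these times, and nothing is read from the comparison, since these values picked the members. Among all transcripts 19.7, 13.5 and 10.8% were called higher and 18.9, 13.4 and 9.08% lower at 2, 6 and 24 h (edgeR, adjusted p under 0.05). The median change of members was 1.34, 1.43 and 1.28 on the log2 scale at the 3 times, against 0.01 over all transcripts. CD22 had the largest log2 change of all 10304 transcripts at 6 h, and the ranks of the 9 members then ran to 196 (NBR1). No threshold came with the choice of members, so none just outside it can be given.

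Per kilobase of listed span the gene-body levels had this order. In untreated cells LOC728743 (1.65 ± 0.54 CPM per kb), NBR1 (1.34 ± 0.07) and NOL3 (1.19 ± 0.52) were highest. SGCB (0.437 ± 0.159), AAK1 (0.363 ± 0.025) and ABCC5 (0.339 ± 0.012) followed, and CD22 (0.162 ± 0.066), TMEM8B (0.150 ± 0.043) and TBC1D2 (0.135 ± 0.023) were lowest (SD, n = 5). Neighbours in this order overlapped in range, including SGCB (highest 0.653) and NOL3 (lowest 0.617), except that CD22 (highest 0.274) stayed below ABCC5 (lowest 0.322). At 24 h the order was the same except that NOL3 (3.68 ± 0.16) stood above NBR1 (2.26 ± 0.08, n = 2 each).

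ABCC5 (NM_005688, chromosome 3, 183637724 to 183735727 on hg19, 98 kb) encodes an ATP-binding cassette exporter of organic anions. With each region scaled to its own library total, its changes in the gene body and near the promoter were alike. Values within a time are given for run 1, run 2 and run 3 in that order. Its gene body held 33.4, 34.5, 31.6, 32.5 and 34.1 CPM at 0 h, then 56.98, 58.2 and 56.2 at 2 h, 66.05, 63.9, 70.4 and 72.3 at 6 h and 67.9 and 65.01 at 24 h. All treated libraries lay above 56 CPM and the untreated ones between 31.6 and 34.5 CPM, with no overlap. The gene-body log2 changes were 0.81 ± 0.06 at 2 h, 1.02 ± 0.06 at 6 h and 1.04 ± 0.08 at 24 h (SE), a fold of 1.75, 2.04 and 2.06. Near the promoter ABCC5 held 40.5, 47.6, 50.99, 46.9 and 45.6 CPM at 0 h, then 77.8, 94.6 and 95.8 at 2 h, 109.5, 127, 57.8 and 96.1 at 6 h and 115 and 93.95 at 24 h. Every treated library was above every untreated one here too, with one 6 h library of run 3 (57.8 CPM) lowest among the treated. The promoter-proximal rise passed at all 3 times, with log2 changes of 0.84 ± 0.20 at 2 h (adjusted p = 0.0238), 1.06 ± 0.20 at 6 h (adjusted p = 0.00858) and 0.98 ± 0.24 at 24 h (adjusted p = 0.0498). The promoter-proximal minus the gene-body log2 change was 0.03, 0.04 and -0.07 at 2, 6 and 24 h. Of the 14 fits that each left out 1 library, 9 kept the call at 2 h, 13 at 6 h and 4 at 24 h. At 2 h the call was lost without any 1 of the untreated libraries of run 2 or the 2 h libraries, and at 6 h without library B of run 2 at 6 h. At 24 h it held only without library A or B of run 1 at 0 h, A of run 3 at 0 h or A of run 3 at 6 h.

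CD22 (NM_001185100, chromosome 19, 35820072 to 35838264), a Siglec whose cytoplasmic tail recruits the phosphatase SHP-1, had the largest gene-body change of the members at 6 h and 24 h. Its gene body held 1.92, 2.35, 2.505, 2.95 and 4.98 CPM at 0 h, then 6.08, 5.57 and 5.45 at 2 h, 8.02, 7.96, 18.7 and 16.2 at 6 h and 10.2 and 9.24 at 24 h. Levels differed between runs, and the untreated library of run 3 (4.98 CPM) came close to the 2 h libraries, which began at 5.45 CPM. Log2 changes in the gene body were 1.28 ± 0.15 at 2 h, 1.75 ± 0.15 at 6 h and 2.01 ± 0.17 at 24 h, the last a 4.02-fold difference. Within runs the 6 h change was 1.52 in run 2 and 1.79 in run 3, and the 2 h change 1.47 in run 1 and 0.99 in run 2. Near the promoter CD22 held 11.4, 15.05, 22.3, 20.8 and 18.2 CPM at 0 h, then 33.2, 22.4 and 26.99 at 2 h, 38.6, 41.9, 32.6 and 37.7 at 6 h and 41.1 and 60.4 at 24 h. The treated libraries were above all untreated ones at each time, although the lowest 2 h library (22.4 CPM) was barely above the highest untreated one (22.3 CPM). Log2 changes near the promoter were 0.68 ± 0.24 at 2 h (adjusted p = 0.103), 1.06 ± 0.24 at 6 h (adjusted p = 0.0243) and 1.43 ± 0.28 at 24 h (adjusted p = 0.0142), so that the rise passed at 6 h and 24 h. The 6 h call was lost without the untreated library of run 3 or either 6 h library of run 2 (adjusted p up to 0.132), and the 24 h call without either 24 h library (up to 0.186). The 2 h change near the promoter was 1.30 in run 1 and 0.19 in run 2. CD22 had the largest mean share of reads near the promoter among the members, 51.5 ± 14.4% of its promoter-proximal and gene-body reads at 0 h over all runs. Within run 2, the only run with 24 h, its share was 68.3 and 64.8% at 0 h and 39.6 and 55.5% at 24 h. Over all transcripts the share in these libraries was 19.7 and 20.6% at 0 h and 14.5 and 15.7% at 24 h. The promoter-proximal minus the gene-body log2 change was -0.60, -0.69 and -0.57 at 2, 6 and 24 h.

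SGCB (NM_000232, chromosome 4, 52886861 to 52904485), the beta subunit of the sarcoglycan complex that links dystrophin to the membrane of muscle cells, had its smallest gene-body gain at 24 h. Its gene body held 5.26, 5.61, 9.83, 11.5 and 6.32 CPM at 0 h, then 18.9, 27.2 and 23.2 at 2 h, 28.1, 27.6, 17.1 and 17.5 at 6 h and 15.5 and 15.05 at 24 h. Levels were higher in run 2 than in the other runs at 0 h and 6 h, and the treated libraries still did not overlap with the untreated ones. The gene-body log2 change was 1.47 ± 0.12 at 2 h, 1.496 ± 0.12 at 6 h and 0.64 ± 0.15 at 24 h, and 24 h minus 2 h gave -0.83 ± 0.16. Its gene-body fold was 2.78 at 2 h, 2.82 at 6 h and 1.56 at 24 h. Near the promoter SGCB held 7.79, 13.1, 45.7, 30.3 and 29.8 CPM at 0 h, then 71.1, 69.1 and 102 at 2 h, 85.4, 75.1, 19.3 and 32.03 at 6 h and 50.6 and 35.2 at 24 h. Untreated values ranged from 7.79 to 45.7 CPM and overlapped with those at 6 h and 24 h, and only the 2 h libraries were all above them. The log2 changes near the promoter were 1.63 ± 0.34 at 2 h (adjusted p = 0.0115), 0.82 ± 0.33 at 6 h (adjusted p = 0.213) and 0.21 ± 0.41 at 24 h (adjusted p = 0.864). The 2 h rise was 2.74 in run 1 and 1.16 in run 2, and without the run 1 library at 2 h it was 0.90 (adjusted p = 0.169). At 6 h the change was 1.09 in run 2 and -0.26 in run 3. The promoter-proximal difference of -1.42 ± 0.45 for 24 h minus 2 h missed the threshold (adjusted p = 0.944, unadjusted p = 0.0052).

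TMEM8B (NM_001042589, chromosome 9, 35829229 to 35854844), a membrane protein studied for its part in cell adhesion, and LOC728743 (NR_027237, chromosome 7, 150102840 to 150109558), whose role is not annotated in the sources used here, had higher gene-body levels at all 3 times and promoter-proximal calls at 2 h and 6 h. The TMEM8B gene body held 3.45, 2.39, 4.496, 3.68 and 5.26 CPM at 0 h, then 10.9, 7.87 and 8.004 at 2 h, 10.1, 8.99, 13.5 and 13.7 at 6 h and 9.16 and 10.1 at 24 h. Treated and untreated libraries did not overlap, and log2 changes were 1.39 ± 0.18 at 2 h, 1.43 ± 0.19 at 6 h and 1.46 ± 0.23 at 24 h. In the 2 h libraries the change was 1.89 in run 1 and 0.95 in run 2. Near the promoter TMEM8B held 4.22, 5.34, 5.84, 6.34 and 11.9 CPM at 0 h, then 13.5, 12.1 and 10.2 at 2 h, 17.5, 12.9, 13.7 and 23.4 at 6 h and 10.5 and 11.2 at 24 h. The untreated library of run 3 (11.9 CPM) lay within the treated range at 2 h and above both 24 h libraries. Promoter-proximal log2 changes were 1.03 ± 0.29 at 2 h (adjusted p = 0.0438), 1.12 ± 0.28 at 6 h (adjusted p = 0.0402) and 0.82 ± 0.36 at 24 h (adjusted p = 0.288). The rise passed at 2 h and 6 h, but at each of these times 3 of the 14 fits without 1 library kept it. The 2 h call held only without A of run 3 at 0 h, A of run 2 at 6 h or A of run 3 at 6 h. At 6 h it held only without A or B of run 1 at 0 h or A of run 3 at 6 h.

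The LOC728743 gene body held 7.42, 9.44, 12.5, 9.39 and 16.8 CPM at 0 h, then 27.2, 25.6 and 27.1 at 2 h, 30.3, 32.4, 59.5 and 42.7 at 6 h and 31.3 and 34.4 at 24 h. No treated library overlapped with an untreated one, and log2 changes were 1.45 ± 0.14 at 2 h, 1.61 ± 0.14 at 6 h and 1.68 ± 0.17 at 24 h. Near the promoter it held 6.81, 6.07, 8.76, 8.81 and 10.9 CPM at 0 h, then 13.5, 16.4 and 20.3 at 2 h, 19.5, 18.7, 32.4 and 20.7 at 6 h and 18.1 and 19.99 at 24 h. These groups did not overlap either, the lowest treated library being a 2 h one of run 1 at 13.5 CPM against a highest untreated value of 10.9 CPM. Promoter-proximal log2 changes were 1.09 ± 0.24 at 2 h (adjusted p = 0.014), 1.18 ± 0.24 at 6 h (adjusted p = 0.0128) and 1.14 ± 0.29 at 24 h (adjusted p = 0.052), a rise at 2 h and 6 h, with 24 h just missing the threshold. The 2 h call was lost without B of run 1 or B of run 2 at 2 h (adjusted p up to 0.0728). At 6 h it was lost without the untreated library of run 3 or either 6 h library of run 2 (up to 0.114). How reads shared with similar sequences elsewhere were counted is not given in the sources used here.

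TBC1D2 (NM_018421, chromosome 9, 100961280 to 101018003), a GTPase-activating protein that switches off Rab7 on late endosomes, was higher in the gene body without a call near the promoter. The TBC1D2 gene body held 6.54, 6.14, 8.54, 9.21 and 7.95 CPM at 0 h, then 19.6, 17.4 and 20.8 at 2 h, 23.4, 27.6, 24.6 and 24.1 at 6 h and 20.9 and 18.7 at 24 h. The lowest treated library (17.4 CPM) was far above the highest untreated one (9.21 CPM), and log2 changes were 1.34 ± 0.12 at 2 h, 1.64 ± 0.13 at 6 h and 1.28 ± 0.15 at 24 h. Near the promoter TBC1D2 held 3.24, 2.43, 3.72, 5.29 and 2.45 CPM at 0 h, then 1.87, 3.64 and 7.82 at 2 h, 7.71, 8.71, 3.63 and 2.42 at 6 h and 3.51 and 4.398 at 24 h. Treated values lay on both sides of the untreated range of 2.43 to 5.29 CPM, from 6 to 21 reads a library. Log2 changes near the promoter were 0.01 ± 0.36 at 2 h (adjusted p = 0.997), 0.59 ± 0.35 at 6 h (adjusted p = 0.428) and -0.39 ± 0.45 at 24 h (adjusted p = 0.741). Promoter-proximal minus gene-body change was -1.33, -1.05 and -1.67 at 2, 6 and 24 h, the most negative of the 8 members at each time.

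AAK1 (NM_014911, chromosome 2, 69685127 to 69870977, 186 kb), the kinase that phosphorylates the mu subunit of the clathrin adaptor AP2, was also higher in the gene body without a call near the promoter, with more reads. The AAK1 gene body averaged 67.4 ± 4.68 CPM at 0 h, 107 ± 2.84 at 2 h, 131 ± 10.7 at 6 h and 130.1 ± 2.44 at 24 h (SD, n = 5, 3, 4 and 2). Log2 changes were 0.64 ± 0.06 at 2 h, 0.95 ± 0.07 at 6 h and 0.88 ± 0.08 at 24 h, with treated libraries from 104 CPM up and untreated ones at 62.7 to 74.1 CPM. Its promoter-proximal level averaged 16.4 ± 1.66 CPM at 0 h, 18.9 ± 4.06 at 2 h, 21.96 ± 3.81 at 6 h and 15.9 ± 4.07 at 24 h. The 6 h libraries, at 19.0 to 27.5 CPM, were all above the untreated range of 14.02 to 18.2 CPM, and those at 2 h and 24 h were not. Log2 changes near the promoter were 0.18 ± 0.24 at 2 h (adjusted p = 0.717), 0.38 ± 0.25 at 6 h (adjusted p = 0.476) and -0.09 ± 0.31 at 24 h (adjusted p = 0.927). The promoter-proximal minus the gene-body change was -0.46, -0.57 and -0.97. In GENCODE, AAK1 overlaps ANXA4 on the opposite strand, but their listed spans lie 98.15 kb apart. ABCC5 overlaps the antisense gene ABCC5-AS1. Which strand was counted is not stated. Where reads from both genes of such a pair lie inside one listed span, they cannot be told apart.

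NBR1 (NM_031862, chromosome 17, 41322498 to 41363707), an autophagy receptor that binds ubiquitin and ATG8 proteins, had the smallest gene-body gain at 2 h and 6 h. The NBR1 gene body held 52.6, 53.1, 59.4, 53.6 and 57.1 CPM at 0 h, then 73.03, 85.4 and 84.3 at 2 h, 96.4, 97.2, 97.4 and 97.01 at 6 h and 90.7 and 95.4 at 24 h. Its 4 libraries at 6 h, from 2 runs, lay between 96.4 and 97.4 CPM, above every untreated one, and log2 changes were 0.54 ± 0.06 at 2 h, 0.76 ± 0.06 at 6 h and 0.695 ± 0.07 at 24 h. Near the promoter NBR1 held 23.03, 13.8, 18.3, 16.6 and 13.7 CPM at 0 h, then 14.8, 13.9 and 12.9 at 2 h, 15.4, 16.6, 18.1 and 23.4 at 6 h and 11.5 and 10.4 at 24 h. Both 24 h libraries were below all untreated ones, while those at 2 h and 6 h overlapped with them. Log2 changes near the promoter were -0.27 ± 0.25 at 2 h (adjusted p = 0.557), 0.16 ± 0.25 at 6 h (adjusted p = 0.816) and -0.55 ± 0.32 at 24 h (adjusted p = 0.44), none past the threshold. At 6 h the change was -0.12 in run 2 and 0.57 in run 3. Within run 2 the share of NBR1 reads near the promoter was 6.94 and 7.47% at 0 h and 2.03 and 2.04% at 24 h. The share over all transcripts in these libraries was 19.7 and 20.6% at 0 h and 14.5 and 15.7% at 24 h.

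NOL3 (NM_001185058, chromosome 16, 67204405 to 67209643, 5.24 kb), also called ARC, is an inhibitor of apoptosis with a CARD, a domain through which caspases and their regulators bind each other. The NOL3 gene body held 3.23, 3.299, 7.900, 8.198 and 8.62 CPM at 0 h, then 14.95, 16.3 and 15.4 at 2 h, 14.3, 16.1, 22.4 and 20.6 at 6 h and 19.9 and 18.7 at 24 h. Treated libraries lay between 14.3 and 22.4 CPM, above the untreated ones, of which those of run 1 were at 3.23 and 3.30 CPM and the others at 7.90 to 8.62 CPM. Log2 changes were 1.52 ± 0.18 at 2 h, 1.25 ± 0.19 at 6 h and 1.56 ± 0.22 at 24 h, and at 2 h 2.16 in run 1 against 0.97 in run 2. Near the promoter NOL3 had 2 to 9 reads in treated libraries and 1 to 4 in untreated ones, too few to pass the filter, so no change was tested.

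**Figure D2:**
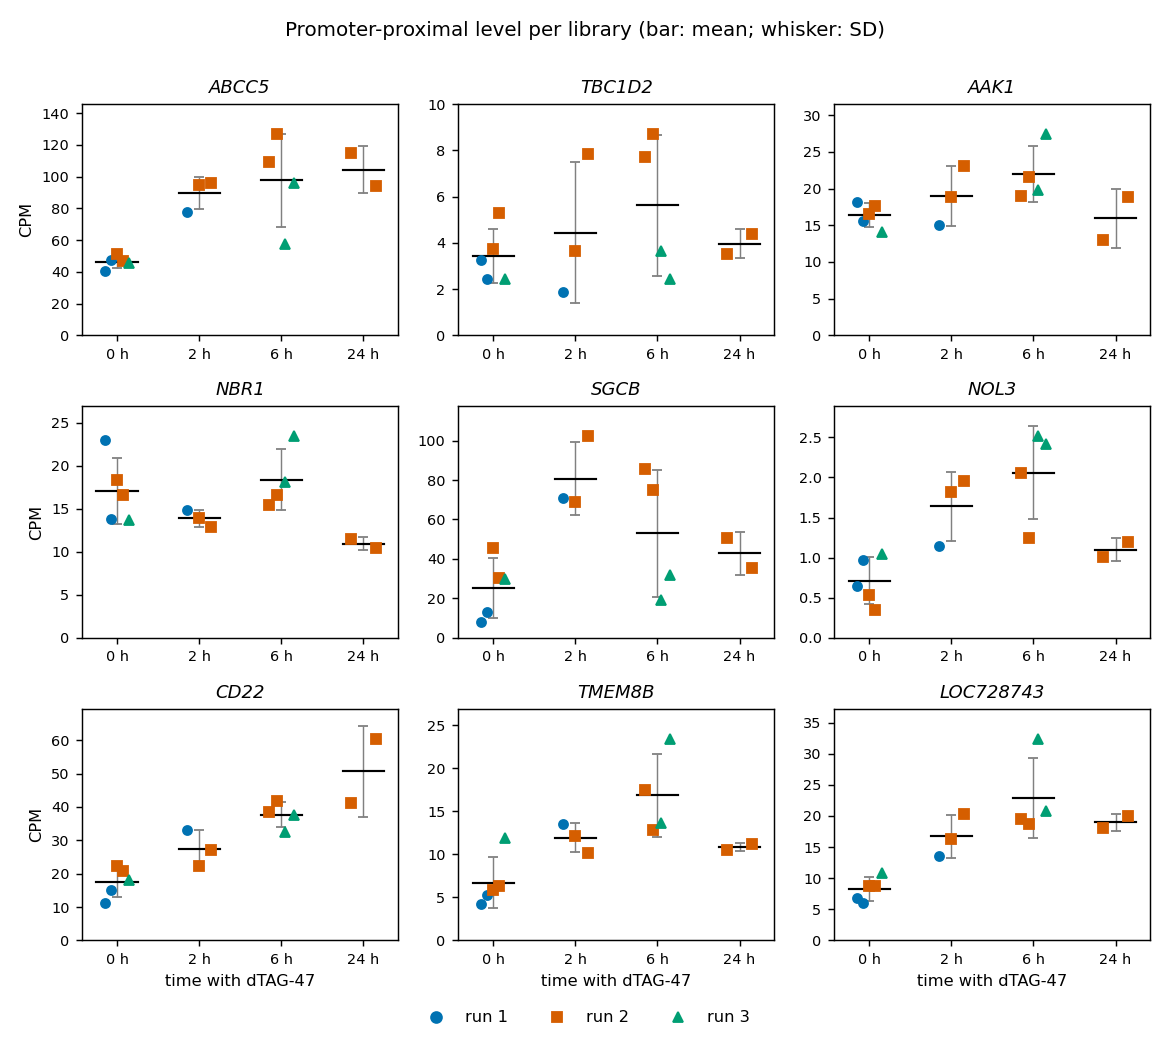
Promoter-proximal level of each member in every library (CPM, linear axis from 0) by time with dTAG-47, with colour and shape for the run, a bar for the mean and a whisker for the SD. ABCC5, CD22 and LOC728743 have all treated libraries above the untreated ones, while TBC1D2, AAK1 and NBR1 overlap at 2 h and NOL3 stays under 3 CPM.

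Near promoters 4 of 8 tested members rose at 2 h (ABCC5, SGCB, TMEM8B, LOC728743), 4 at 6 h (ABCC5, CD22, TMEM8B, LOC728743) and 2 at 24 h (ABCC5, CD22). Among all 9980 transcripts tested there, 2.43, 0.802 and 0.631% were called higher at these times. Among transcripts called higher in the gene body, 6.99% of 1988, 3.19% of 1347 and 2.43% of 1068 were also called higher near the promoter. All libraries of a time lay above all 5 untreated ones for 4, 5 and 3 of the 8 members tested near promoters, against 4.62, 2.29 and 7.86% of the transcripts tested there. Members were picked for large gene-body gains, and no transcripts matched for size were compared. No member was called lower by edgeR or DESeq2 at any time, against 2.17, 1.44 and 0.782% of transcripts in edgeR, and none had a fall at an unadjusted p under 0.05 against 0 h. TBC1D2, AAK1 and NBR1 were called at no time. Of the 8 tested members 1, 0 and 3 had a promoter-proximal change below 0 at 2, 6 and 24 h, all of them among these genes. Among transcripts called higher in the gene body 27.6, 22.3 and 26.7% had a promoter-proximal change below 0.

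These counts, and the differences between the regions, depend on how promoter-proximal libraries are scaled. The values above take the promoter-proximal counts as their own library total. With gene-body library sizes the median of all promoter-proximal changes moved to -0.16, -0.23 and -0.23, no member passed at any time (adjusted p 0.106 to 0.991), and the members' changes relative to that median were 1.70 (SGCB), 1.07 (TMEM8B), 1.11 (LOC728743) and 0.83 (ABCC5) at 2 h. In the authors' deposited table, which scales both regions by gene-body factors, none of the members was below 0.05 near the promoter, the lowest adjusted p being 0.105 for SGCB at 2 h. Without a term for the run 0, 4 and 1 members passed at 2, 6 and 24 h. Leaving out 1 library gave 0 to 4 members at 2 h, with 0 without B of run 1 at 2 h, 1 without B of run 2 at 2 h and 2 without A or B of run 2 at 0 h or A of run 2 at 2 h. At 6 h it gave 0 to 4, with 0 without B of run 2 at 6 h and 1 without A of run 2 at 6 h or A of run 3 at 0 h. At 24 h it gave 0 to 3, with 0 without either 24 h library and 1 without any of the other run 2 libraries or B of run 1 at 2 h.

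**Figure D3:**
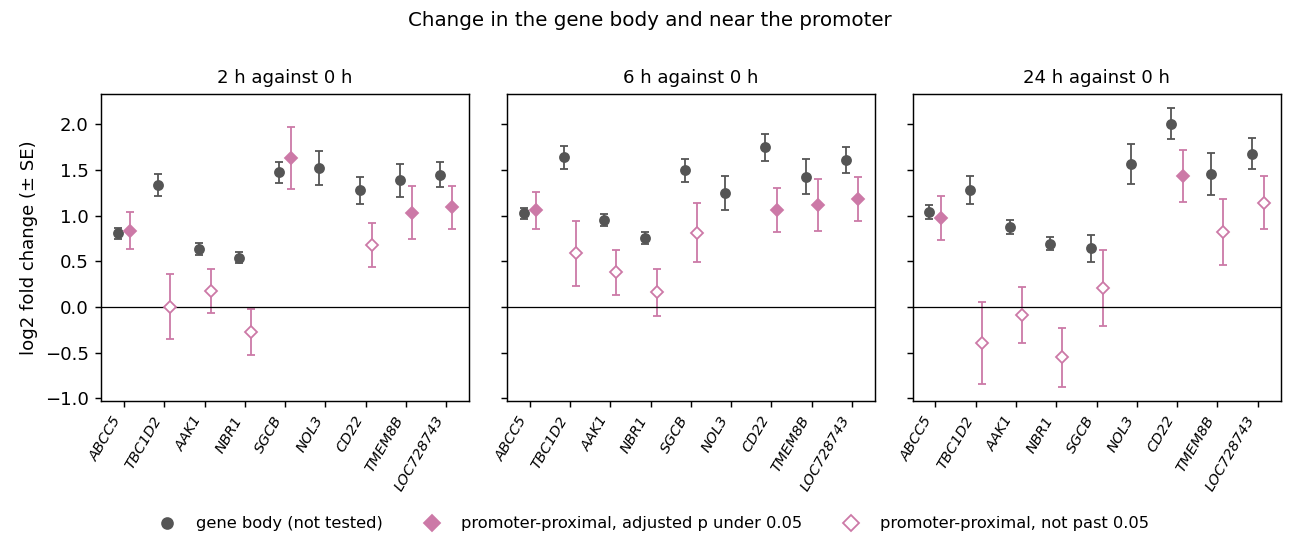
Log2 fold change against 0 h with its standard error for each member at 2, 6 and 24 h, in the gene body (grey circles, not tested) and near the promoter (pink diamonds, filled where the adjusted p is under 0.05). With each region scaled to its own total, the pair lies close together for ABCC5 at each time and is farthest apart for TBC1D2. NOL3 has no promoter-proximal value.

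Set side by side, the promoter-proximal change was below the gene-body change in 6 of 8 members at 2 h, 7 at 6 h and 8 at 24 h, with a median difference of -0.41, -0.58 and -0.61. No test was run, since gene-body changes picked the members, which by itself favours differences below 0. The share over all transcripts is not given here, so nothing is read from these counts. Within run 2, which holds all 4 times, ABCC5 had differences of 0.12, 0.24 and 0.03 and TBC1D2 of -0.85, -0.71 and -1.30. In run 3 at 6 h the differences were -0.36 for ABCC5, -0.19 for NBR1 and AAK1, and -1.69 for SGCB. All these differences take each region as its own total. With gene-body library sizes ABCC5 near the promoter was 0.68, 0.83 and 0.75 at 2, 6 and 24 h. That is below its gene-body changes of 0.81, 1.02 and 1.04. Between times no transcript near promoters was called for 6 h or 24 h against 2 h by edgeR, among them the 8 members (720 and 497 of 9980 at an unadjusted p under 0.05, 2 and 2 by DESeq2). In gene bodies the 24 h minus 2 h log2 differences were 0.73 ± 0.18 for CD22, 0.24 ± 0.08 for ABCC5 and 0.24 ± 0.08 for AAK1, against -0.83 for SGCB.

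Transcripts within 100 kb of a member were examined in the gene-body data, where 32 were listed. Of these 17 rose and 3 fell at 2 h, 11 rose and 1 fell at 6 h, and 10 rose and 1 fell at 24 h, with median changes of 0.32, 0.21 and 0.26. The genome-wide shares of higher calls are those given above, 19.7, 13.5 and 10.8%. The 17, 11 and 10 were spread unevenly. TMEM8B had 7 neighbours, of which 6, 5 and 6 rose, and NOL3 had 11, of which 6, 4 and 3 rose, whereas none of the 5 around ABCC5, TBC1D2 and CD22 did. SGCB had no listed neighbour within this distance.

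Around TMEM8B the neighbours that rose at 2 or more times were CREB3, a membrane-bound transcription factor (1.60 ± 0.25, 1.37 ± 0.26 and 1.67 ± 0.33 at 2, 6 and 24 h), SPAG8 (1.07, 1.21 and 1.79), the mitochondrial hydrolase HINT2 (0.94, 0.84 and 1.32), the Golgi exchange factor subunit RGP1 (0.76 at 2 h and 1.21 at 24 h, with 0.64 at 6 h missing the threshold at an adjusted p of 0.0589 in edgeR), the glucosylceramidase GBA2 (0.54, 0.66 and 0.53) and talin, TLN1 (0.68, 0.51 and 0.47). The natriuretic peptide receptor NPR2, 19.5 kb from TMEM8B, fell by 0.81, 0.78 and 1.14. All 7 lie on the same side of TMEM8B. In GENCODE, annotated on GRCh38, TMEM8B overlaps HINT2 on the opposite strand, but their listed spans lie 14.19 kb apart. The limit on strands given for AAK1 applies to them only where reads of both genes fall within one listed span.

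Around NOL3 the heat shock factor HSF4 ends 0.557 kb before the listed start of NOL3 on the same strand and rose by 1.36 ± 0.22, 1.14 ± 0.23 and 1.001 ± 0.28, beside 1.52, 1.25 and 1.56 for NOL3 itself. The glycosyltransferase gene B3GNT9 rose by 1.18, 0.87 and 1.29, while TRADD, the adaptor of the TNF receptor (0.69 and 0.61), and TMEM208 (0.84 and 0.62) rose at 2 h and 6 h. KIAA0895L, which overlaps the end of NOL3 on the opposite strand, had changes of 0.03, 0.20 and -0.15, none past the threshold. Next to NBR1 the DNA repair gene BRCA1 rose by 0.31, 0.37 and 0.27 and TMEM106A, 0.187 kb beyond its end, by 0.38 and 0.28 at 2 h and 6 h.

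**Figure D4:**
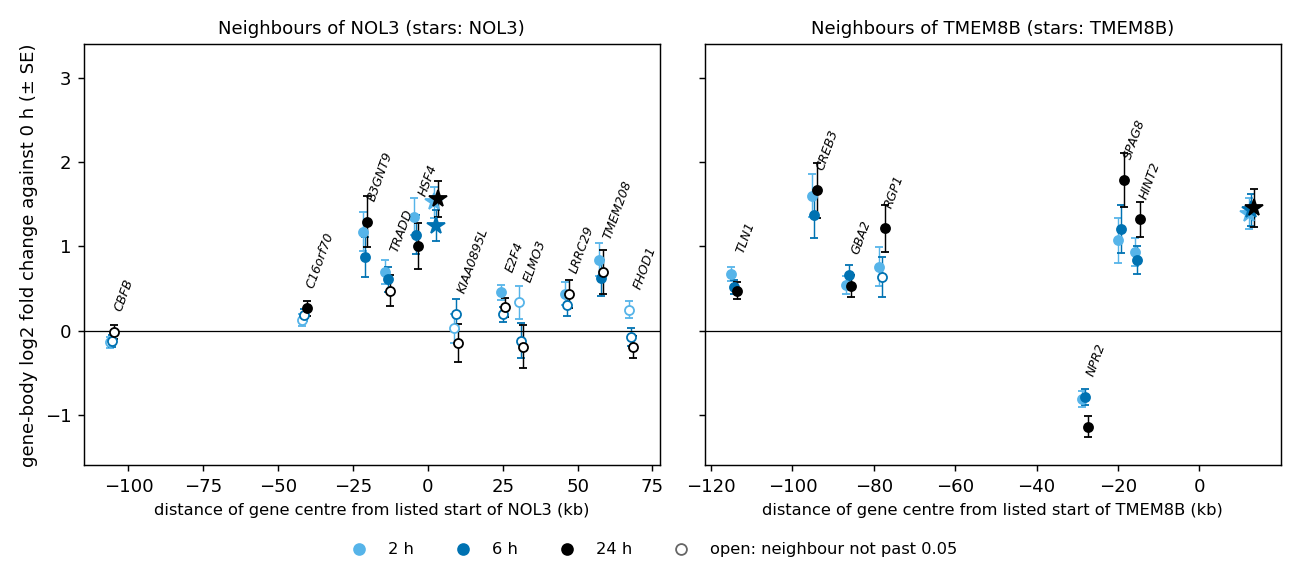
Gene-body log2 fold change against 0 h with its standard error for transcripts within 100 kb of NOL3 (left) and TMEM8B (right), against the distance of each gene's centre from the listed start of the member (kb), at 2, 6 and 24 h. Stars are the member, and open circles are neighbours that did not pass an adjusted p of 0.05; HSF4 lies beside NOL3, and NPR2 alone is below 0 near TMEM8B.

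Other genes of the families and pathways of the members were examined in gene bodies. Medians over all transcripts were 0.01 at each time, and the shares of all transcripts called at 2, 6 and 24 h were 19.7, 13.5 and 10.8% higher and 18.9, 13.4 and 9.08% lower. Of 22 ABC transporters of the ABCB, ABCC and ABCG families other than ABCC5, 9 were measured, with 2 higher and 3 lower at 2 h, 1 and 3 at 6 h and 0 and 1 at 24 h (medians 0.01, 0.06 and -0.05). ABCC1, the exporter MRP1, fell by 0.42 and 0.34 at 2 h and 6 h, and mitochondrial ABCB8 rose by 0.93 and 0.54. Of 29 measured TBC-domain proteins 6 rose and 6 fell at 2 h, 7 and 3 at 6 h, and 3 and 1 at 24 h (medians -0.07, 0.01 and 0.01). TBC1D7, a subunit of the TSC complex, rose by 0.80, 0.79 and 0.61, and TBC1D4, which acts on GLUT4 vesicles, fell by 0.41, 0.42 and 0.40. Of 28 clathrin adaptor and endocytosis genes 6 rose and 6 fell at 2 h, 3 and 4 at 6 h, and 4 and 3 at 24 h (medians 0.07, 0.11 and 0.11). Synaptojanin, SYNJ1, rose by 0.52, 0.67 and 0.56 and the scaffold ITSN2 fell by 0.41, 0.26 and 0.34.

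Of 23 autophagy receptor and ATG8 genes none rose and 5 fell at 2 h, 2 and 3 at 6 h, and 0 and 2 at 24 h (medians 0.00, -0.04 and -0.04). Over all transcripts 19.7, 13.5 and 10.8% were higher and 18.9, 13.4 and 9.08% lower at these times. The receptors BNIP3L (-0.64, -0.34 and -0.52) and CALCOCO2 (-0.51, -0.35 and -0.39) fell at all 3 times and NCOA4 at 2 h and 6 h (-0.38 and -0.18). Of the dystrophin-glycoprotein complex 7 of 21 were measured, with 2, 2 and 1 higher and 1, 0 and 0 lower (medians 0.12, 0.12 and 0.19). The O-mannosyltransferase POMT2 rose by 0.73 and 0.54 at 2 h and 6 h, and utrophin, UTRN, fell by 0.26 at 2 h and rose by 0.29 and 0.49 later. Among 27 CARD proteins and apoptosis regulators 6 rose at each time and 5, 3 and 1 fell (medians 0.05, 0.13 and 0.14). CFLAR, the caspase-8 inhibitor, fell by 0.48 and 0.34 at 2 h and 6 h.

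Of 31 Siglec and B-cell receptor signalling genes 15 were measured, with 1 higher and 4 lower at 2 h, 1 and 1 at 6 h, and 6 and 0 at 24 h (medians -0.05, 0.02 and 0.23). Over all transcripts 10.8% were higher and 9.08% lower at 24 h. The kinase SYK rose by 0.20, 0.34 and 0.37, the Siglec CD33 by 0.85 at 24 h, and the adaptor PIK3AP1 fell by 0.43 at 2 h. Of 13 measured zinc finger or KRAB-domain genes of the cluster near LOC728743, 4 rose and 3 fell at 2 h. At 6 h 2 rose and 2 fell, and at 24 h 3 and 3 (medians 0.06, -0.04 and -0.05 at 2, 6 and 24 h). ZNF775, which rose at 2 h, is also among the neighbours of LOC728743 counted above. ZNF746 fell by 0.57, 0.71 and 0.89 and ZNF425 rose by 0.56, 0.52 and 0.69. Near promoters each of the 8 lists had at most 1 gene called in either direction at any time, where 2.43, 0.802 and 0.631% of all transcripts were called higher and 2.17, 1.44 and 0.782% lower.

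Over the 14 libraries, gene-body log2 deviations from the untreated mean of the same run correlated between members with Pearson coefficients of 0.78 (SGCB and CD22) to 0.99 (ABCC5 and NBR1). Libraries share untreated means and runs, and the members were picked for a like course, so these are descriptions. The genes named next are those most alike outside the members. Among 9681 transcripts with a mean count of at least 100, the 2 non-members most like ABCC5 were VSIG10 and POLA2 (r = 0.98 each). The 2 most like CD22 were the immunoreceptor NFAM1 and WWC3 (0.98 each). NFAM1 had gene-body changes of 0.62, 0.997 and 1.22. SGCB was most like the erythrocyte mutase BPGM (0.97), whose changes of 0.86, 0.68 and 0.31 also shrank, and ALG6 (0.96). NOL3 was most like DCPS (0.98) and AACS (0.97), TMEM8B most like BRD8 and LINC00265 (0.98 each), and NBR1 most like CYTH1 (0.98) and POLA2 (0.97). TBC1D2 was most like WIPF2 and EPHX1, AAK1 most like TCTEX1D2 and WIPF2, and LOC728743 most like WIPF2 and TCTEX1D2 (all 0.98).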

How the data were processed

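PRO-seq reads of 14 tagged libraries were analysed from 6 deposited tables. They hold raw read counts, which the authors counted per RefSeq transcript in gene bodies and promoter-proximal regions on hg19, with the authors' log2 fold changes and p-values. Reads were handled with HOMER, SAMtools, Bowtie2 2.2.2 and Trimmomatic 0.32, and compared with DESeq2 or DESeq, per the submitters' processing notes. The sources used here do not give the counting windows or the strand. The 84 deposited normalized columns were not used.

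Counts were fitted in R 4.3.3 with edgeR 4.0.16 (default expression filter, TMM, quasi-likelihood test, terms for run and time, all 14 libraries), separately for the 2 regions, with Benjamini-Hochberg adjustment over all transcripts and a threshold of 0.05. Per-library log2 deviations used a prior count of 2. The fit was tested on simulated counts. DESeq2 1.42.0 was an alternative. The members and the 8 gene lists were chosen with earlier results of these data known. Named genes are the members, SMARCA5, the 2 non-member genes most like each member, and up to 3 genes per list with the smallest adjusted p. Neighbours within 100 kb that overlap a member or were called at 2 or more times are also named. Some genes that this rule names are not reported here. Upstream sequences are from RefSeq (GRCh38.p14), in which all 9 symbols matched; strands and overlaps are from GENCODE. The precision of a level is limited by the counts and the number of libraries, which share 3 runs.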

Additional observations from a re-analysis of the deposited data

Results flagged for a closer look

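Dixon's test was applied to 36 groups of 4 or 5 libraries, and 2 stood out where chance gives about 1 in 20. The promoter-proximal level of LOC728743 was 32.4 CPM in library A of run 3 at 6 h, against 18.7 to 20.7 CPM in the other 3 libraries at 6 h, a gap of 0.85 of the range. Near the promoter of TMEM8B, the untreated library of run 3 held 11.9 CPM, against 4.22 to 6.34 CPM in the other 4 untreated libraries, a gap of 0.724 of the range. Both are libraries of run 3. Without its flagged library the 6 h change near the promoter was 1.06 for LOC728743 and 1.46 for TMEM8B on the log2 scale. The library flagged for TMEM8B is the only untreated one of run 3. An outlier and a run difference cannot be told apart there, and without it the 6 h libraries of run 3 have no untreated library of their own run.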

How the results depend on the processing

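In gene bodies the members kept their direction under all alternatives run, from which nothing is read, since these libraries picked them for rises. Of 621 recomputed values 1 moved by more than the SD of the untreated log2 levels over all runs (TMEM8B at 2 h in run 2 alone, 0.94). That SD includes differences between runs, so larger shifts can stay within it. NOL3 at 2 h went from 1.52 to 1.07 without B of run 1 at 2 h and was not counted as moved. Near promoters 478 of 600 kept their direction and stayed called or uncalled, 92 lost the call, 9 gained one and 21 reversed. Of the 24 member and time pairs behind these values, only the 4, 4 and 2 called at 2, 6 and 24 h had a call to lose. Many of the 478 were thus uncalled in the main fit, and their number does not measure how stable the calls were. The counts of members called near promoters at 2, 6 and 24 h (4, 4 and 2) became 0, 1 and 0 at an adjusted p under 0.01, 2, 2 and 0 with only the times compared, and 0, 0 and 0 with gene-body library sizes. They became 0 at 2 h and 1 at 24 h without a run term, and 1 at 24 h with DESeq2 size factors or without a filter. The counts of all transcripts called in gene bodies (3979, 2762 and 2045) became 2055, 1302 and 844 at 0.01. They became 1365 at 2 h and 1111 at 24 h without a run term, 1917 at 2 h with only the times compared, and 4383 at 6 h and 4447 at 24 h in run 2 alone. Near promoters all calls (460, 224 and 141) became 64, 50 and 20 at 0.01, 6 at 2 h and 20 at 24 h without a run term, 702, 358 and 241 in DESeq2 with a run term, 199, 133 and 24 with only the times compared, 1682, 938 and 1430 in run 2 alone, and 34, 68 and 22 with gene-body library sizes.

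A further 4 alternatives were chosen after seeing the data. With runs 2 and 3 only, 1 member passed at 2 h, all calls were 2555 in gene bodies at 2 h, and 535 and 378 near promoters at 6 and 24 h. With runs 1 and 2 only, 1 member passed at 6 h, all calls were 1470 in gene bodies at 6 h, and 703, 58 and 216 near promoters. With gene-body size factors in DESeq2, 0, 0 and 0 members passed, with 78, 94 and 38 calls near promoters.

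Leaving out 1 library gave 0 to 4 members at 2 h, 0 to 4 at 6 h and 0 to 3 at 24 h, 1922 to 4265, 1545 to 3329 and 596 to 2551 calls in gene bodies, and 137 to 724, 27 to 381 and 3 to 279 near promoters. TBC1D2 near the promoter at 2 h was -0.0181 in DESeq2, -0.0014 with DESeq2 size factors, -0.19 with gene-body library sizes, -0.20 with gene-body size factors in DESeq2, and -0.49 to 0.35 without 1 library. At 24 h it was 0.23 without a run term. AAK1 at 24 h was 0.0101 with runs 2 and 3 only and -0.40 to 0.14 without 1 library. NBR1 at 6 h was -0.12 in run 2 alone, -0.0781 with gene-body library sizes, -0.10 with runs 1 and 2 only, -0.0807 with gene-body size factors in DESeq2, and -0.10 to 0.26 without 1 library. SGCB at 24 h was -0.0619, -0.10 and -0.0672 with gene-body library sizes, runs 2 and 3 only and gene-body size factors in DESeq2, and -0.11 to 0.47 without 1 library. The cause was not tested. The 2 non-member genes most like each member by Pearson correlation make 18 member and gene pairs over 14 genes. Of these pairs 1 was also chosen by Spearman correlation.

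The columns carry letters (A and B) and run codes but none of the replicate numbers in the labels. The promoter-proximal share of reads was lower in A than in B in 6 of 6 pairs of one run and time, and its part in the results was not tested. In run 2, differences between A and B correlated across transcripts by -0.07 to 0.13 in gene bodies and -0.15 to 0.33 near promoters over 6 pairs of times, above 0.1 in 1 pair each, so the letters were not taken to pair the libraries. With a replicate block of run and letter, the last alternative added, 3, 3 and 2 members passed near promoters and all calls were 2845, 2307 and 1723 in gene bodies and 456, 247 and 194 near promoters. ABCC5 at 24 h (0.91, adjusted p = 0.068) and TMEM8B at 2 h (0.89, 0.0956) and 6 h (0.98, 0.0867) lost the call, and LOC728743 at 24 h gained it (1.197, 0.0429). The promoter-proximal counts of TBC1D2 and NOL3 were at most 21 reads a library.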
